A study of Caenorhabditis elegans with 15 samples.

Results

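The 10 genes described here make the proteins that load and form the replicative helicase and that support DNA synthesis behind it: mcm-2, mcm-3, mcm-4, mcm-5, mcm-6, mcm-7, cdc-6, cdt-1, pcn-1 and rnr-1. They were chosen by name, and all 10 of 10 were found by their WormBase symbol among the 47111 genes of the count table. Their levels were followed in poly-A selected RNA from whole young adult Caenorhabditis elegans, grown at 20 °C on Escherichia coli OP50, in 15 libraries. There were 3 libraries for each of 5 genotypes, which were N2, the laboratory wild type, and 4 strains with an altered puf-8 gene. The alleles were ust221 (coded MUT-4A in the labels), ust222 (MUT-4N), ust223 (MUT-8G) and ok302, a deletion allele; the codes are not interpreted here. By the labels all 5 groups shared stage, food and temperature, and puf-8 was the only locus named as altered. Whether replicates were grown as separate cultures is not stated in the labels, so p-values measure the spread between libraries, which may be technical.

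Before S phase, the origin recognition complex together with CDC-6 and CDT-1 places the hexamer of MCM-2 to MCM-7 on DNA, a step called licensing, and the loaded hexamer later becomes the motor of the replicative helicase. The PCNA clamp, encoded by pcn-1, then tethers DNA polymerases to the template, and ribonucleotide reductase, whose large subunit is encoded by rnr-1, supplies the deoxynucleotides. In adult C. elegans the somatic cells have stopped dividing, so DNA replication is mostly a matter of the germ line, where the distal stem and progenitor cells cycle and where oocytes also store replication mRNAs for the cleavages of the embryo. The puf-8 gene encodes a member of the PUF proteins, which bind sites in mRNA 3' UTRs, and it is known for its roles in those germline progenitors and in spermatocytes.

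Library totals ran from 20969800 to 29352254 counts, and levels are given as CPM, the counts relative to a library size scaled by edgeR's TMM method. The puf-8 gene itself had 7, 11 and 3 counts in the ok302 libraries and 737 to 5008 in the other 12. Of 9 marker lists, the germline, oocyte, intestine, hypodermis and muscle lists were detected in every library. A few libraries stood apart, namely N2 replicate 1 and ust222 replicates 1 and 3: their 13 sperm genes summed to 19.8 to 22.3 CPM, with 3 to 5 of them at 0, against 57.8 to 184 CPM with none at 0 in the other 12 libraries. The 12 molting genes of the same 3 libraries summed to 976 to 1381 CPM, against 67.8 to 103 CPM in the other N2 and ust222 libraries and 582 to 763 CPM in ok302. The labels give 1 stage for all libraries. Whether these 3 libraries, or those of ok302 and ust223, differed in stage from the others was not tested. In ok302 and ust223 a difference in stage could not be told apart from the genotype. N2 replicate 1 is part of the reference of every comparison with N2. Results are therefore also given for the 12 libraries without N2 replicate 1 and ust222 replicates 1 and 3. Leaving these out does not match N2 to ok302 in the molting genes. Their median log2 fold change in ok302 against N2 was 1.13 with 15 libraries and 3.22 with the 12.

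Every MCM subunit gene fell in ok302 against N2. The fall was 2.76-fold for mcm-7 and 2.66-fold for mcm-2, 2.12-fold for mcm-3, 2.28-fold for mcm-4, 2.01-fold for mcm-5, and 1.62-fold for mcm-6. Each of the 6 genes encodes a different subunit of the same hexamer. In whole-animal RNA, fewer cells of a type and less RNA per cell cannot be told apart.

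The mcm-7 gene (WBGene00003159, chromosome V, 4347166 to 4349768, plus strand; coordinates as deposited, with no build given in the sources used here) stood at 306, 331 and 385 CPM in the N2 libraries and at 133, 111 and 125 CPM in the ok302 libraries. All 3 ok302 libraries lay below all 3 N2 libraries, and the log2 fold change was -1.47 ± 0.15 (SE; adjusted p = 0.000103, edgeR quasi-likelihood test with Benjamini-Hochberg adjustment). Levels were 229, 195 and 185 CPM in ust221, 244, 246 and 234.7 CPM in ust222, and 288, 244 and 321 CPM in ust223. The means of the 3 ust groups thus lay between those of N2 and ok302, and the ust223 libraries overlapped those of N2.

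The mcm-2 gene (WBGene00003154, chromosome II, 12001510 to 12006625, minus strand) had 216, 237 and 296 CPM in N2 and 101.02, 88.4 and 92.0 CPM in ok302. The log2 fold change was -1.41 ± 0.18 (SE; edgeR adjusted p = 0.000336). Its levels were 229.8, 167 and 143 CPM in ust221, 185, 170.2 and 169 CPM in ust222, and 234.9, 205 and 252 CPM in ust223. No ok302 library reached the lowest library of any other genotype.

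For mcm-4 (WBGene00003156, chromosome I, 2318291 to 2321847, minus strand), N2 gave 226, 242 and 295 CPM and ok302 gave 122, 106 and 107 CPM, a log2 fold change of -1.19 ± 0.16 (SE; edgeR adjusted p = 0.00036). For mcm-3 (WBGene00003155, chromosome V, 15056719 to 15059599, minus strand), N2 gave 163, 240.3 and 223 CPM and ok302 gave 105, 92.1 and 98.7 CPM, a log2 fold change of -1.08 ± 0.17 (SE; edgeR adjusted p = 0.000982). For mcm-5 (WBGene00003157, chromosome III, 4288264 to 4291283, minus strand), N2 gave 114, 187 and 171 CPM and ok302 gave 79.0, 81.7 and 74.0 CPM, a log2 fold change of -1.01 ± 0.19 (SE; edgeR adjusted p = 0.00224). The groups did not overlap for any of these 3 genes, and N2 replicate 1, one of the libraries that stood apart, was the lowest N2 library for each.

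The mcm-6 gene (WBGene00003158, chromosome III, 9794367 to 9798643, plus strand) was the exception among the subunits. N2 gave 108, 226 and 186 CPM and ok302 gave 116, 104 and 102 CPM, so that N2 replicate 1 lay inside the ok302 range. The log2 fold change was -0.69 ± 0.22 (SE; edgeR adjusted p = 0.0368). Without N2 replicate 1, ust222 replicate 1 and ust222 replicate 3 the mcm-6 change was -0.93 ± 0.17 (SE; edgeR adjusted p = 0.000645; adjusted p from 0.000363 to 0.18 over the settings tried), and the call was lost when N2 replicate 2 (-0.46), N2 replicate 3 (-0.66) or ok302 replicate 2 (-0.67) was left out. Without those replicates in turn, 1953, 1631 and 1851 of all genes tested were called lower, against 2650 in the main fit. A receptor-like gene, srxa-10, lies inside mcm-6 on the opposite strand, with 0 to 11 counts per library.

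The genes of the helicase loaders did not pass the test in ok302. The cdc-6 gene (WBGene00000382, chromosome I, 4268070 to 4270287, minus strand), which encodes an ATPase that works with the origin recognition complex, had 36.3, 76.2 and 56.1 CPM in N2 and 36.2, 33.7 and 40.9 CPM in ok302. The cdt-1 gene (WBGene00000413, chromosome I, 3223160 to 3228104, minus strand), whose protein escorts the MCM hexamer to origins and is degraded once replication starts, had 17.02, 52.4 and 39.3 CPM in N2 and 13.3, 20.1 and 19.9 CPM in ok302. For both, N2 replicate 1 lay within the ok302 range, while N2 replicates 2 and 3 lay above all 3 ok302 libraries.

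The log2 fold change in ok302 was -0.61 ± 0.30 for cdc-6 (SE; edgeR adjusted p = 0.155; 95% interval -1.25 to 0.03) and -1.03 ± 0.48 for cdt-1 (SE; edgeR adjusted p = 0.135; 95% interval -2.06 to 0.00). The cdt-1 interval includes a fall as large as that of mcm-7, and the cdc-6 interval does not. Both genes passed in the 12 libraries, with -0.83 ± 0.27 for cdc-6 (SE; edgeR adjusted p = 0.021) and -1.36 ± 0.44 for cdt-1 (SE; edgeR adjusted p = 0.0212). Libraries of the ust alleles also differed: cdt-1 ran from 9.28 to 32.6 CPM within ust221, from 18.5 to 31.2 CPM within ust222 and from 21.7 to 42.5 CPM within ust223, and cdc-6 ran from 30.1 to 52.9, from 37.4 to 56.4 and from 48.4 to 73.2 CPM in the same groups. Counts of cdt-1 ranged from 137 to 1465 per library, so counting error is small beside these differences.

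The PCNA gene pcn-1 (WBGene00003955, chromosome IV, 4047937 to 4049448, minus strand) fell most among the 10 genes in the 15-library fit. It had 452, 410.3 and 641 CPM in N2 and 191, 165 and 173 CPM in ok302, a 2.84-fold fall, with a log2 fold change of -1.51 ± 0.17 (SE; edgeR adjusted p = 0.000208). Levels were 428, 360.1 and 316 CPM in ust221, 338, 366 and 353 CPM in ust222, and 407, 408 and 419.6 CPM in ust223. The ust223 libraries lay close together, whereas N2 replicate 3 was the highest library of all.

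The ribonucleotide reductase gene rnr-1 (WBGene00004391, chromosome III, 9225374 to 9228786, minus strand) had 228, 263 and 279.9 CPM in N2 and 130.3, 103 and 115 CPM in ok302. The log2 fold change was -1.15 ± 0.15 (SE; edgeR adjusted p = 0.000336), a 2.22-fold fall. In ust221 it had 244, 201 and 181 CPM, in ust222 202, 219.6 and 207 CPM, and in ust223 253, 234.7 and 259 CPM. No library of another genotype came down to the ok302 levels, and the ust221 and ust223 libraries overlapped N2.

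**Figure D1:**
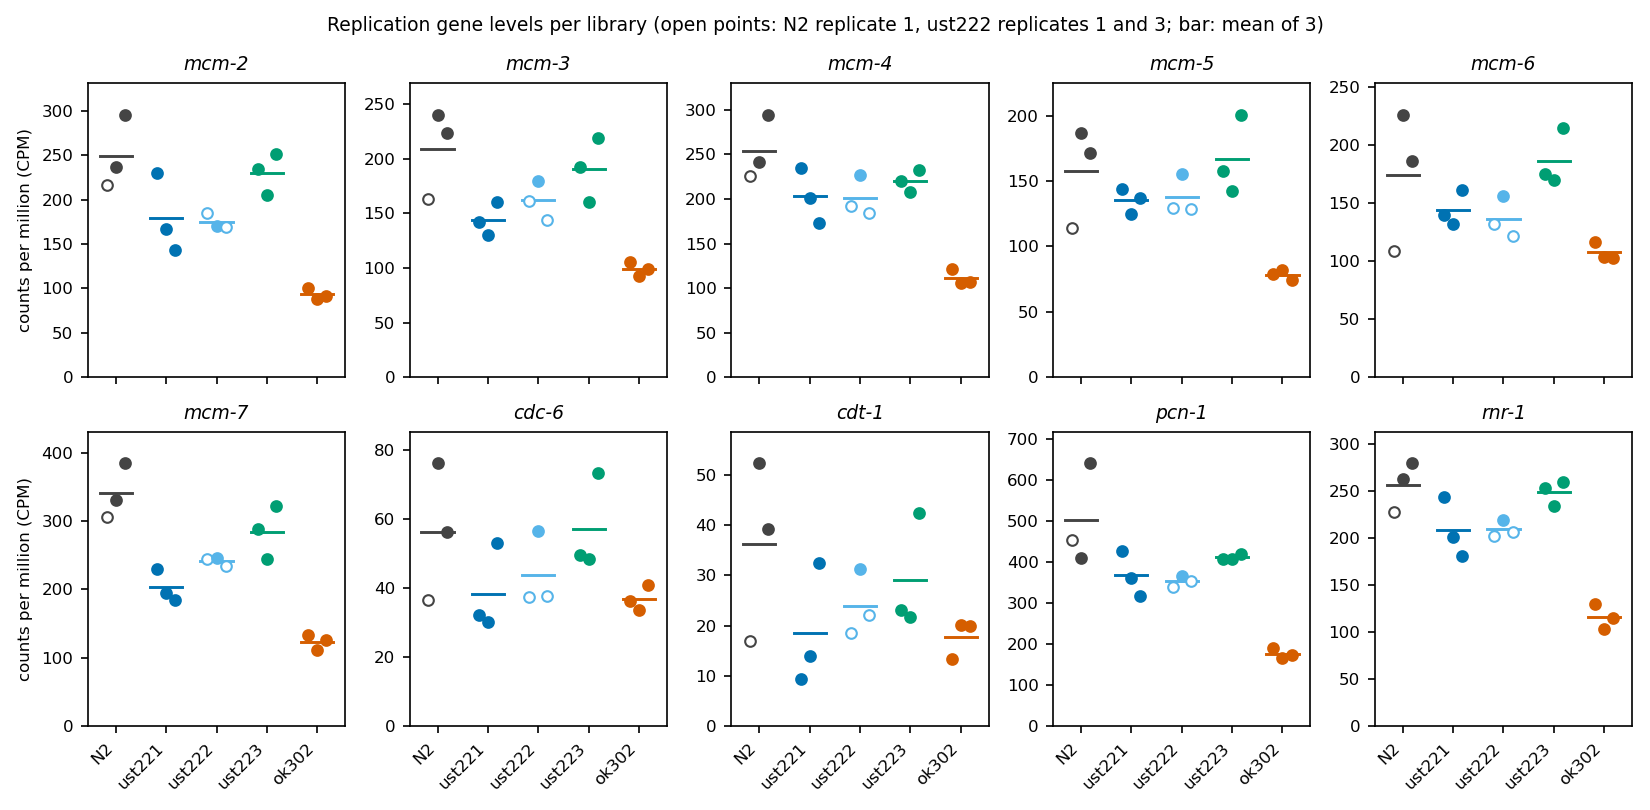
CPM of each of the 10 genes (y axes from 0) by genotype, with 1 point per library and a bar at the mean of the 3 libraries; open points are N2 replicate 1 and ust222 replicates 1 and 3. The ok302 points sit below all other points for mcm-2, mcm-3, mcm-4, mcm-5, mcm-7, pcn-1 and rnr-1, and mix with the others for cdc-6 and cdt-1, where N2 alone spans 17.02 to 52.4 CPM for cdt-1.

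Counted together, 8 of the 10 genes fell in ok302 and none rose, where 15.4% of all 17217 genes tested were called lower. All 10 fell in the 12 libraries, where 23.6% of all genes were called lower. The median log2 fold change of the 10 genes was -1.12 in the 15 libraries and -1.24 in the 12, beside medians of 0.10 and 0.39 over all genes. For 7 of the 10, all 3 ok302 libraries lay below all 3 N2 libraries, mcm-6, cdc-6 and cdt-1 being those that overlapped. How many of all genes tested were separated in this way was not counted. With unscaled library totals, which moved the median of all genes to 0.30, 7 of the 10 genes were called, without mcm-6. In that setting 1673 of all 17217 genes were called lower. The median of the 10 genes relative to all genes was -1.20 against -1.22 with TMM scaling.

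Markers of the germ line were lower in the same libraries. All 10 oocyte genes (median log2 fold change -1.58), 5 of 6 germ granule genes (-1.01), 3 of 5 genes of germline stem and mitotic cells (-0.82) and 5 of 8 meiotic prophase genes (-0.78) fell in ok302, and no gene of these lists rose. The summed oocyte level was 2098 to 2603 CPM in ok302 and 5386 to 8643 CPM in N2, the germ granule sum 829 to 929 against 1198 to 2096 CPM, the stem cell sum 190.1 to 218 against 392 to 553 CPM, and the meiotic sum 539 to 627 against 842 to 1713 CPM. Rises were called for 4 of 13 sperm genes and 5 of 12 molting genes, where 8.45% of all genes were called higher. The sperm genes summed to 167 to 184 CPM in ok302 and 19.8 to 137 CPM in N2, and the molting genes to 582 to 763 against 88.9 to 1381 CPM. Of the lists for other tissues, 1 of 6 intestine genes and 2 of 6 muscle genes rose, where 8.45% of all genes were called higher. In the hypodermis list 1 of 6 genes fell, a share close to the 15.4% of all genes called lower. Without the 3 libraries that stood apart, 8 sperm genes rose and 1 fell, all 12 molting genes rose (median log2 fold change 3.22), 4 of 6 hypodermis genes rose and 1 fell, and 2 of 6 genes rose in the intestine and in the muscle list, where 26.2% of all genes were called higher. In those 12 libraries all 10 oocyte, 6 of 6 germ granule, 5 of 5 stem cell and 7 of 8 meiotic genes fell, where 23.6% of all genes were called lower. The part of any of these lists in the fall of the replication genes was not tested.

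The distance of the 10 genes from those lists within a library depended on the list. Their mean log2 CPM minus that of the stem cell list was 1.19 ± 0.03 in N2 and 1.21 ± 0.08 in ok302 (SD, n = 3 each), and minus that of the germ granule list it was -0.54 ± 0.13 and -0.63 ± 0.07. Minus the oocyte list it was -1.73 ± 0.16 in N2 and -1.27 ± 0.08 in ok302, with the 3 ok302 libraries above all N2 libraries. Minus the meiotic list it was 0.87 ± 0.25 and 0.53 ± 0.01, with the 3 ok302 libraries below all N2 libraries. In ust221 the distance was -0.98 ± 0.23 to the germ granule list, 1.00 ± 0.14 to the stem cell list and 0.54 ± 0.01 to the meiotic list, with all 3 libraries below all N2 libraries for each, and in ust223 the distance to the stem cell list was 1.38 ± 0.05, with all 3 above. These distances were not tested; a test on 3 against 3 libraries cannot give a two-sided exact permutation p under 0.10.

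**Figure D2:**
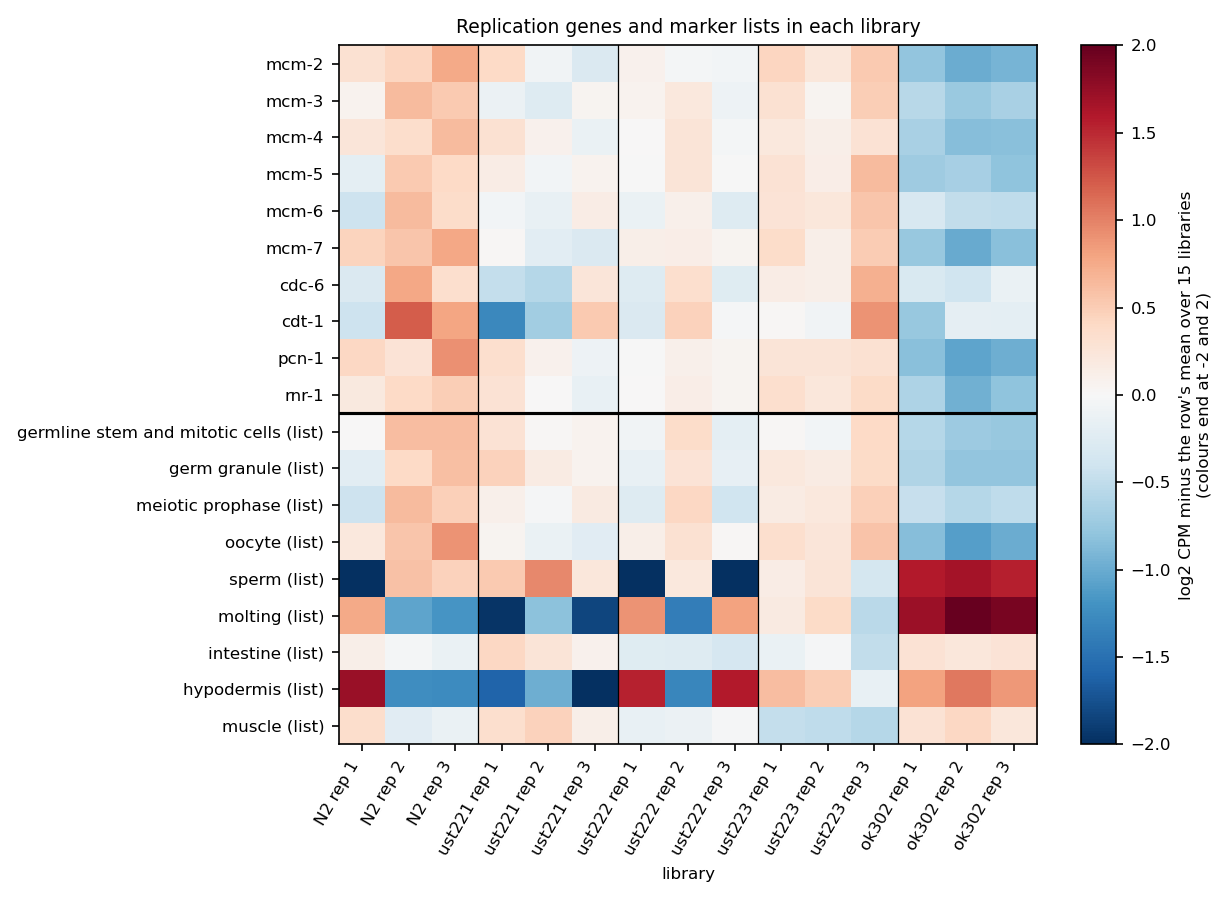
Log2 CPM of the 10 genes (upper rows) and mean log2 CPM of 9 marker lists (lower rows) in each of the 15 libraries (columns), as the difference from the row's mean, with red above it, blue below it and colours ending at -2 and 2. The ok302 columns are blue for the replication genes and for the germline and oocyte lists and red for sperm and molting; N2 replicate 1 and ust222 replicates 1 and 3 share low sperm and high hypodermis rows.

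Few of the 10 genes were called in the ust alleles against N2. In ust221, mcm-7 was the only gene of the 10 that fell (log2 fold change -0.75 ± 0.15, SE; edgeR adjusted p = 0.0285), where 0.761% of all genes were called lower; 4 of the 10 had an unadjusted p under 0.05. The share of all genes under that unadjusted bound was not counted. All 10 estimates were below 0, from -0.96 for cdt-1 to -0.22 for mcm-5, with a median of -0.46 beside -0.09 over all genes. In the 12 libraries mcm-3 (-0.60 ± 0.17, SE; edgeR adjusted p = 0.0326; 0.107 with 15 libraries) fell together with mcm-7, where 6.65% of all genes were called lower. Leaving out N2 replicate 2 (-0.76), N2 replicate 3 (-0.66) or ust221 replicate 2 (-0.66) ended the mcm-7 call. In those fits 44, 33 and 21 of all genes tested were called lower, against 131 in the main fit. With unscaled library totals, which put the median of all genes at -0.34, 6 of the 10 genes were called. In that setting 929 of all 17217 genes were called lower, against 131 in the main fit.

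In ust222 none of the 10 genes passed with edgeR, where 0% of all 17217 genes were called lower. Of the 10, 5 had an unadjusted p under 0.05, and the share of all genes under that bound was not counted in any setting. DESeq2 called none of the 10, where it called 41 of all 17217 genes lower. Estimates ran from -0.60 for cdt-1 to -0.19 for mcm-5, with a median of -0.36 beside -0.17 over all genes. Without ust222 replicate 3 the median was -0.16 and 1 gene had an unadjusted p under 0.05, and with only the 6 libraries of ust222 and N2 the median was -0.19 and none had. The 95% intervals reached from -0.90 to -0.13 for mcm-2 and from -0.59 to 0.21 for mcm-5, so each gene's ok302 fall lay outside its interval. The same held for mcm-3, mcm-4, mcm-7, pcn-1 and rnr-1. For mcm-6 (-0.82 to 0.13), cdc-6 (-0.998 to 0.279) and cdt-1 (-1.62 to 0.43) the interval included the gene's ok302 change. All 3 ust222 libraries lay below all N2 libraries for mcm-2, mcm-7, pcn-1 and rnr-1, and the share of all genes separated in this way was not counted. In the 12 libraries, which keep 1 ust222 library, whose spread is taken from the other groups, none passed, where 0.00545% of all genes were called lower, and none had an unadjusted p under 0.05.

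In ust223 none of the 10 genes passed, where 0.227% of all genes were called lower, none had an unadjusted p under 0.05, and DESeq2 called none. Over all 17217 genes DESeq2 called 238 lower. Estimates ran from -0.32 for cdt-1 to 0.10 for mcm-6, with a median of -0.12 beside -0.08 over all genes. The 95% interval was -0.58 to 0.06 for mcm-7, -0.65 to 0.08 for pcn-1 and -0.36 to 0.27 for rnr-1. Every one of the 10 genes overlapped between the ust223 and N2 libraries. In the 12 libraries none passed, where 3.32% of all genes were called lower. Whether the ust alleles differ from each other was not tested.

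**Figure D3:**
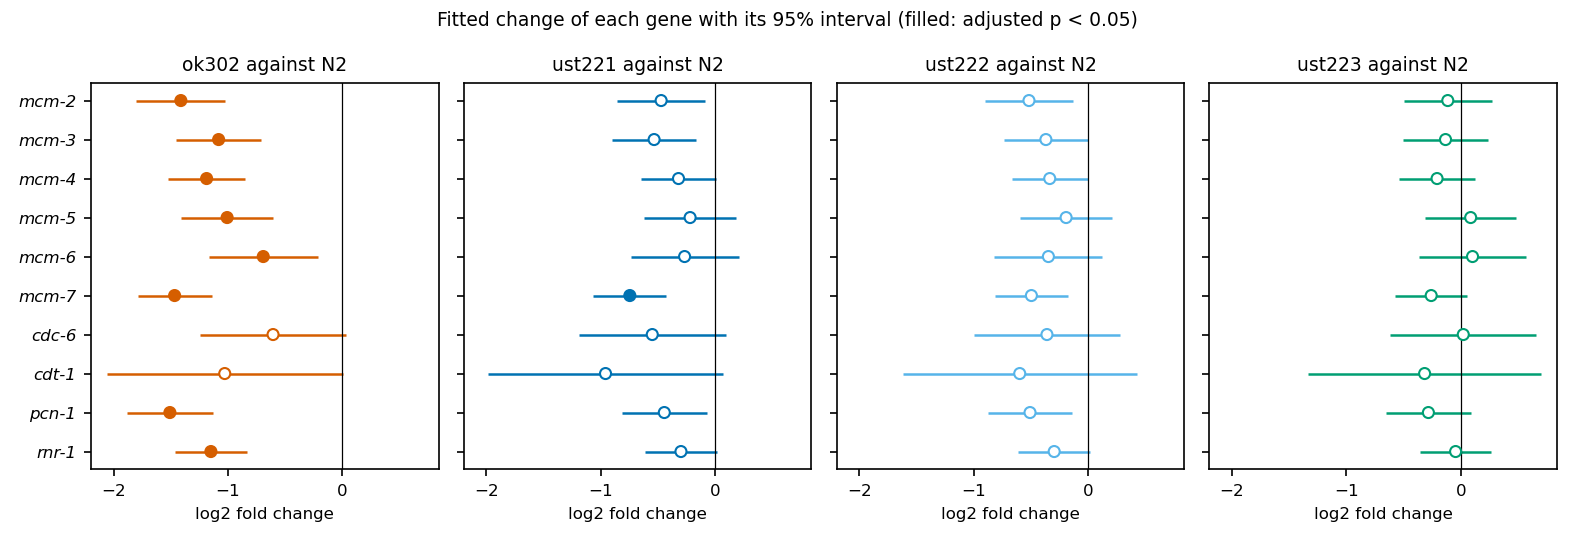
Fitted log2 fold change against N2 (x axis) with its 95% interval for each of the 10 genes (rows) in ok302, ust221, ust222 and ust223; filled points have an adjusted p under 0.05. In ok302, 8 points are filled, against 1 in ust221 (mcm-7, -0.75) and none in ust222 or ust223, and the intervals of cdc-6 and cdt-1 are the widest in each panel.

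Against ok302, most of the 10 genes were higher in each ust allele. These comparisons share the ok302 libraries with each other and with the comparison above. Germ cell markers were higher in them too, with all 10 oocyte genes in each. In ust221, ust222 and ust223 in turn, 6, 3 and 5 of 6 germ granule genes and 3, 2 and 2 of 5 stem cell genes were higher. Of 8 meiotic prophase genes, 3, 3 and 5 were higher, and no gene of these lists was lower. In ust221, 7 of the 10 were higher, where 10.9% of all genes were called higher; mcm-6, cdc-6 and cdt-1 did not pass. The 7 changes ran from 0.55 ± 0.17 for mcm-3 (SE; edgeR adjusted p = 0.0444) to 1.06 ± 0.17 for pcn-1 (adjusted p = 0.00515), while cdc-6 stood at 0.06 ± 0.30 and cdt-1 at 0.07 ± 0.47. The 12 libraries added mcm-6, giving 8, where 21.2% of all genes were called higher. With unscaled library totals, which put the median of all genes at -0.56 in this comparison, mcm-4 and pcn-1 alone were called. In that setting 364 of all 17217 genes were called higher, and cdc-6, cdt-1 and mcm-6 had negative estimates.

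In ust222, the same 7 genes were higher than in ok302, where 7.62% of all genes were called higher, from 0.71 ± 0.17 for mcm-3 (SE; edgeR adjusted p = 0.0154) to 1.00 ± 0.17 for pcn-1 (adjusted p = 0.00399). In the 12 libraries, which keep 1 ust222 library, the median log2 fold change of the 10 genes was 1.01 beside -0.23 over all genes. In ust223, 8 genes were higher, all but cdc-6 and cdt-1, where 12.2% of all genes were called higher. They ran from 0.79 ± 0.22 for mcm-6 (SE; edgeR adjusted p = 0.0258) to 1.30 ± 0.18 for mcm-2 (adjusted p = 0.00108). The ust223 libraries lay above all ok302 libraries for all 10 genes, including cdc-6 (0.63 ± 0.30) and cdt-1 (0.71 ± 0.48), which did not pass. The share of all genes separated in this way was not counted. The 12 libraries added cdc-6, giving 9, where 22.7% of all genes were called higher.

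Per length, pcn-1 was the most abundant of the 10 mRNAs and cdt-1 the least in N2. Levels in CPM per kb of the gene length in the deposited table were 506 ± 124 for pcn-1, 139 ± 16.4 for mcm-7 and 99.5 ± 10.2 for rnr-1 (SD, n = 3). They were followed by 96.1 ± 13.7 for mcm-4, 88.4 ± 14.7 for mcm-2, 77.8 ± 15.1 for mcm-3, 67.2 ± 23.2 for mcm-6 and 64.6 ± 15.8 for mcm-5, each overlapping with the gene before it. The loaders closed the order with 32.0 ± 11.3 for cdc-6 and 13.7 ± 6.75 for cdt-1, neither overlapping with the gene before it. In ok302 the first 4 genes kept their places at 178 ± 13.4 for pcn-1, 50.3 ± 4.49 for mcm-7, 44.8 ± 5.35 for rnr-1 and 42.2 ± 3.41 for mcm-4, and mcm-6 came next at 41.6 ± 3.02. The ratio of mcm-7 to mcm-6 per kb was 1.13 to 1.29 in the ok302 libraries and 1.54 to 2.98 in N2, with 1.21 to 1.73 in ust221, 1.67 to 2.03 in ust222 and 1.52 to 1.74 in ust223. This pair was chosen after its values were seen and was not tested.

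Ratios to pcn-1 per kb differed from gene to gene. The ratio of mcm-7 to pcn-1 was 0.281 ± 0.0423 in N2 and 0.283 ± 0.00965 in ok302 (SD, n = 3 each). That of mcm-6 to pcn-1 was 0.138 ± 0.0641 in N2 and 0.234 ± 0.00746 in ok302, and that of cdc-6 to pcn-1 was 0.0666 ± 0.0332 and 0.119 ± 0.0133. All ok302 libraries lay above all N2 libraries for both. For cdt-1 the ratio was 0.0283 ± 0.0175 and 0.0382 ± 0.0105, with overlapping libraries. The small subunit gene rnr-2 stood at 4.11 ± 0.668 times rnr-1 per kb in N2 and 3.79 ± 0.538 times in ok302, with overlapping libraries. These ratios were not tested.

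Within a genotype, 2 sets of 5 genes can be drawn whose members correlated more with each other than with any gene of the other set over the 15 libraries. The deviations of log2 CPM from the genotype mean correlated at 0.71 to 0.89 (Pearson) among mcm-2, mcm-4, mcm-7, pcn-1 and rnr-1, and at 0.67 to 0.92 among mcm-3, mcm-5, mcm-6, cdc-6 and cdt-1. Between the sets the correlations ran from -0.29 for cdt-1 with pcn-1 to 0.58 for mcm-7 with mcm-3 and with mcm-5. These are descriptions over 15 libraries that share their scaling, and the sets were drawn after the values were seen. In the 11 libraries left without the ust222 group and N2 replicate 1, the ranges were 0.69 to 0.96 and 0.38 to 0.87 within the sets and -0.67 to 0.51 between them, so that the ranges overlapped.

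The sets split the hexamer, with mcm-2, mcm-4 and mcm-7 on one side and mcm-3, mcm-5 and mcm-6 on the other. Library-to-library spread was smallest for rnr-1 (SD of 0.15 log2 units within genotype) and mcm-7 (0.15) and largest for mcm-6 (0.28), cdc-6 (0.38) and cdt-1 (0.65). In the 11 libraries mcm-6 came down to 0.16, while cdc-6 stayed at 0.33 and cdt-1 at 0.61. The wide spread of mcm-6 was that of N2, from 108 to 226 CPM, since ust222 ran from 122 to 156 CPM. The loaders also spread in other genotypes, for example between ust221 replicate 1 (9.28 CPM of cdt-1) and replicate 3 (32.6 CPM).

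Over the 15 libraries, correlations with the stem cell, germ granule and oocyte lists overlapped between the sets. Meiotic prophase correlations ran from 0.18 to 0.53 in the set of pcn-1 and from 0.69 to 0.92 in that of mcm-6. Over the 11 libraries these ranges were -0.24 to 0.31 and 0.55 to 0.92, and the oocyte and germ granule ranges no longer overlapped. Hypodermis, muscle and intestine correlations also kept the sets apart over the 15 libraries. The sets were drawn after the values were seen, and no difference between them was tested. Deviations of mcm-6 followed the meiotic prophase list (r = 0.92 over 15 libraries and 0.92 over 11). So did those of mcm-5 (0.88 and 0.77), mcm-3 (0.85 and 0.81) and cdc-6 (0.84 and 0.84). Deviations of these genes ran opposite to the hypodermis, muscle and molting lists. For mcm-6 the hypodermis list gave -0.86 and -0.77, the muscle list -0.89 and -0.68, and the molting list -0.80 and -0.66. For pcn-1 the correlation with the meiotic list was 0.18 and -0.24, and with the oocyte list 0.73 and 0.83. For mcm-7 the oocyte list gave 0.86 and 0.94, and for mcm-2 it gave 0.77 and 0.87. Over the 15 libraries the oocyte list also gave 0.76 for mcm-5, 0.69 for mcm-3 and 0.67 for mcm-6, where the 11 libraries gave 0.42, 0.32 and 0.07. With the stem cell list mcm-5 gave 0.93 and 0.87, mcm-4 gave 0.75 and 0.61 and mcm-7 gave 0.68 and 0.79. None of these lists holds any of the 10 genes, and the part of germ cell composition in these deviations was not tested.

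**Figure D4:**
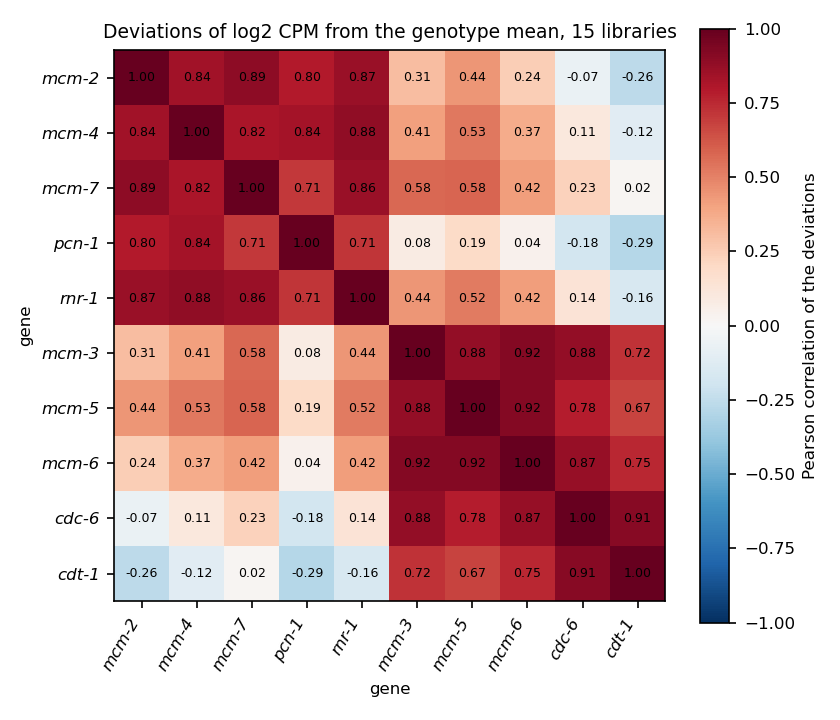
Pearson correlation between genes (rows and columns) of the deviations of log2 CPM from the genotype mean over 15 libraries, printed in each cell and coloured from blue (-1) to red (1). The blocks that stand out are mcm-2, mcm-4, mcm-7, pcn-1 and rnr-1 at 0.71 or more, and mcm-3, mcm-5, mcm-6, cdc-6 and cdt-1 at 0.67 or more, with cells of -0.29 to 0.58 between them.

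Other replication genes fell in ok302 as well. Of 52 listed genes, 48 were found by symbol in the table and all 48 were tested: 28 fell, where 15.4% of all genes were called lower, and none rose. Their median log2 fold change was -0.79. By role, 5 of 8 other licensing genes, 9 of 12 genes of origin firing, 13 of 23 of DNA synthesis and chromatin assembly, and 1 of 5 of fork protection and checkpoint fell, the last a share near that of all genes. These counts were 7, 12, 19 and 2 in the 12 libraries, where 23.6% of all genes were called lower and again none of the 48 rose. Leaving out N2 replicate 2 took the total of 28 to 20, where 1953 of 17660 genes tested were called lower. Unscaled library totals also took it to 20, where 1673 of 17217 were.

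Among the licensing genes, gmn-1, which encodes geminin, the binding partner and inhibitor of CDT-1, went from 44.5 ± 21.7 CPM in N2 to 11.7 ± 3.96 CPM in ok302 (SD, n = 3; log2 fold change -1.93 ± 0.43, SE; edgeR adjusted p = 0.00663). The origin recognition complex genes orc-3 (-1.25 ± 0.18, adjusted p = 0.000488) and orc-1 (-1.11 ± 0.27, adjusted p = 0.0106) fell too. The partner gene cdt-1 did not pass over the 15 libraries; the difference between gmn-1 and cdt-1 was not tested.

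Of the genes that act when origins fire, cye-1, encoding cyclin E, fell by 1.41 on the log2 scale (SE 0.29; edgeR adjusted p = 0.00394). The GINS subunit genes psf-2 (-1.28 ± 0.17, adjusted p = 0.000349) and psf-1 (-1.27 ± 0.20, adjusted p = 0.000936) fell by similar amounts. GINS joins the MCM hexamer in the active helicase.

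Of the synthesis genes, chaf-2, encoding a subunit of chromatin assembly factor 1, changed by -1.34 ± 0.16 (SE; edgeR adjusted p = 0.000228). The small ribonucleotide reductase subunit gene rnr-2 went from 574 ± 147 to 233 ± 13.9 CPM (SD, n = 3; -1.30 ± 0.18, SE; edgeR adjusted p = 0.000466), beside -1.15 for rnr-1, and dut-1, encoding dUTPase, changed by -1.23 ± 0.17 (adjusted p = 0.000432). The fork checkpoint kinase gene chk-1 changed by -1.14 ± 0.18 (adjusted p = 0.000807).

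**Figure D5:**
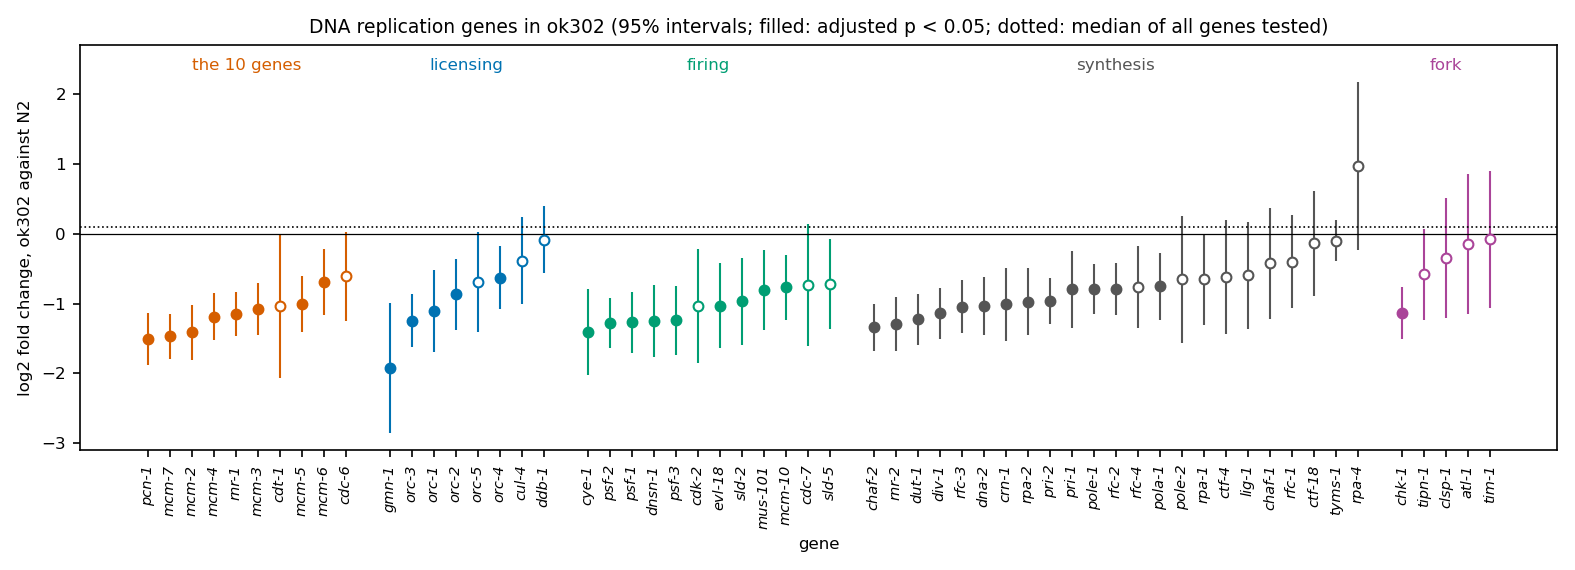
Log2 fold change in ok302 against N2 (y axis) with its 95% interval for the 10 genes and 48 other replication genes (x axis), grouped by role; filled points have an adjusted p under 0.05, the solid line is 0 and the dotted line the median of all genes, 0.10. Filled points are all below 0, from 8 of the 10 genes to 1 of 5 fork genes (chk-1), and rpa-4 is the only gene with an estimate above 0, which did not pass.

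Few of the other replication genes were called in the ust alleles against N2: psf-2 fell in ust221 (-0.88 ± 0.16, SE; edgeR adjusted p = 0.0226), none of the 48 passed in ust222, and tyms-1, encoding thymidylate synthase, rose in ust223 (0.69 ± 0.14, adjusted p = 0.023); psf-2 and tyms-1 are named here because they were the only calls over the 15 libraries, where 0.761% of all genes were called lower in ust221 and 1.13% higher in ust223. In the 12 libraries 10 of the 48 were lower in ust221, where 6.65% of all genes were, and 1 was higher and 1 lower in ust223, where 7.84% and 3.32% were. Against ok302, 15 of the 48 were higher in ust221, 15 in ust222 and 27 in ust223, where 10.9%, 7.62% and 12.2% of all genes were. The 12 libraries gave 30, 28 and 35, where 21.2%, 16.2% and 22.7% of all genes were higher. One was lower, rpa-4 in ust222 (-1.85 ± 0.57, adjusted p = 0.0428), where 9.25% of all genes were lower, and none was lower in the 12 libraries, where 15.5% were. It encodes a protein related to the single-strand binding factor RPA.

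The genes whose pattern over the 15 libraries was most like the mean log2 CPM of the 10 genes came from many families. Of 12010 genes ranked by Pearson correlation, the first 10 were trcs-1 (0.994), F56C9.3 (0.993), pigv-1 (0.987), hxk-1 (0.987), pgm-3 (0.985), cul-2 (0.985), egg-6 (0.985), oops-1 (0.983), plk-1 (0.982) and div-1 (0.981). One of them, div-1, encodes a subunit of DNA polymerase alpha-primase and is one of the 48 other replication genes; it had 82.9 ± 14.9 CPM in N2 and 37.6 ± 1.64 CPM in ok302 (SD, n = 3). The polo-like kinase gene plk-1 went from 267 ± 60.6 to 127 ± 11.7 CPM. Correlations above 0.9 were held by 14 of the 48 other replication genes and by 703 of the 12010 genes ranked, and gmn-1, at 0.72, was not among them.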

How the data were processed

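Reads were aligned with HISAT2 2.0.5, per the submitters' processing notes; these do not give the counting program, strand setting, genome build or annotation. The authors deposited raw read counts per gene (47111 genes, 15 libraries), used as deposited. WormBase identifiers were matched to symbols by a table of gene names (44017 matched). The deposited gene lengths scaled CPM per kb. The members, the lists and the tests were chosen with earlier results of these data known.

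Counts were tested in R 4.3.3 with edgeR 4.0.16: filterByExpr by genotype (17217 genes), TMM scaling, 1 quasi-likelihood fit to all 15 libraries with a mean per genotype, and Benjamini-Hochberg adjustment over all genes, called at an adjusted p under 0.05. SE is the absolute log2 fold change over the square root of F. Log2 CPM for correlations and list means used a prior count of 2. The fit was tested on simulated counts. Alternatives were DESeq2 1.42.0, its size factors, library totals, no filter, CPM above 1 in 3 libraries, only the 6 libraries compared, a replicate block, 12 libraries, and each replicate left out.

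Named were all 10 members; per role, up to 3 called other replication genes with the largest change in ok302 and a mean of at least 50 counts, plus rnr-2, gmn-1 and orc-1; and the 10 genes most correlated with the members' mean. The overlapping genes C25D7.16 (26 bases of mcm-3) and ekl-7 (15 bases of mcm-4) lie on the opposite strand; without strand information their reads cannot be told apart there.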

Additional observations from a re-analysis of the deposited data

How the results depend on the processing

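The count of the 10 genes called stayed within 1.5 times the reported one in every alternative run for ok302 against N2 (7 to 10) and for ust222 and ust223 against ok302, and stayed at 0 for ust222 and ust223 against N2. For ust221 against N2, where 1 gene was called, 2 were called in the 12 libraries and 2 with DESeq2, 6 with library totals and 0 with only the 6 libraries. Leaving out 1 replicate gave 0 to 2. Of all 17217 genes, 131 were called lower in the main fit, 1029 with DESeq2 and 929 with library totals. With only the 6 libraries, 0 of 15020 genes tested were called lower. The fits without N2 replicate 2, N2 replicate 3 or ust221 replicate 2 called 0 of the 10 genes, and 44, 33 and 21 of all genes lower. For ust221 against ok302, 7 were called, but 2 with library totals, where 364 of all 17217 genes were called higher against 1870 in the main fit. The cause was not tested, though ust221 replicates 1 and 2 had the lowest TMM factors (0.688 and 0.765). In this comparison 3 uncalled estimates changed sign: mcm-6 to -0.0107 with library totals; cdc-6 to -0.33 with library totals, -0.0013 without ok302 replicate 2 and -0.24 without ust221 replicate 3 (up to 0.22 over the replicates left out); and cdt-1 to -0.26 with library totals, -0.048 with the replicate block, -0.00094 without ok302 replicate 1 and -0.61 without ust221 replicate 3 (up to 0.33). No paired fit was taken as the main one: in none of the 7 comparisons made were the deviations of all 3 same-number pairs correlated above 0.1, though 10 of 15 libraries were closest to one of their own number and the 3 pairs of ust221 with ust223, not compared here, reached 0.14 to 0.32. With the replicate block 7 of the 10 genes were called in ok302 against N2, without mcm-6. Depth did not limit the members, whose lowest count was 137, for cdt-1.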
